A study of Mus musculus with 8 samples.

Results

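The receptors for the Fc part of IgG were described in tumour dendritic cells by 5 genes: the activating receptor chains Fcgr1, Fcgr3 and Fcgr4, the common signalling chain Fcer1g and the inhibitory receptor Fcgr2b. These 5 were chosen by name out of 24369 gene symbols in the count table, and all 5 were among the 11394 genes with enough counts to be tested. Bulk RNA was sequenced from 8 libraries of conventional dendritic cells (cDC) sorted from MC38-EGFP tumours of mice labelled WT, 2 libraries for each of 4 groups. MC38 is a mouse colon carcinoma line, here carrying the green fluorescent protein EGFP. The groups were EGFP-positive cDC1, EGFP-negative cDC1, EGFP-positive cDC2 and EGFP-negative cDC2, where a positive cell held EGFP signal in the sort. The series title concerns sitagliptin, but no group label names a drug, and age, sex and the sorting markers of the subsets are not stated in the labels. The labels give the cell type as colon cancer, whereas the series design describes sorted cDC.

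Fc gamma receptors bind IgG that coats a particle or forms a complex. The mouse activating chains Fcgr1, Fcgr3 and Fcgr4 reach the surface with Fcer1g, whose immunoreceptor tyrosine-based activation motif (ITAM) recruits the kinase Syk, while Fcgr2b carries an inhibitory motif (ITIM) in its own tail and recruits the phosphatase SHIP1, the product of Inpp5d. In dendritic cells the activating receptors are known for uptake of immune complexes, antigen presentation and maturation, and Fcgr2b for raising the threshold of that response.

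The coding sequence that sets the opposite roles apart is short, and both motifs are shown because the comparison below is between the genes that carry them. A stretch of Fcgr2b on the minus strand at chr1:170961065-170961094 (GRCm38, GENCODE M21) held codons 317 to 322 of 340, and a stretch of Fcer1g on the minus strand at chr1:171229883-171230078, which spans an intron, held codons 65 to 79 of 86. The capitals mark the ITIM of Fcgr2b and the ITAM of Fcer1g, between 2 flanking codons on each side.
Fcgr2b ITIM: aatacgATCACCTACTCACTTCTCaagcat
Fcer1g ITAM: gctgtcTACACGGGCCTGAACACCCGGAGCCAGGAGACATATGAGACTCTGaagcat
Of the 5 coding sequences, the ITAM pattern was found in Fcer1g alone. The looser ITIM pattern also matched Fcgr1 at 3 places, Fcgr4 at 1 and Fcer1g at 1, and had 0 matches in Fcgr3. Such a match is a match of letters and does not show an inhibitory site.

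The genes lie on 2 chromosomes. Fcgr2b (ENSMUSG00000026656, chr1:170958617-170976547, minus strand), Fcgr4 (ENSMUSG00000059089, chr1:171018920-171029761, plus strand), Fcgr3 (ENSMUSG00000059498, chr1:171051174-171064935, minus strand) and Fcer1g (ENSMUSG00000058715, chr1:171229572-171234365, minus strand) lie in the same region, and Fcgr1 (ENSMUSG00000015947, chr3:96282909-96293969, minus strand) is apart. Fcgr3 and Fcgr2b are related in sequence: 9.58% of the 50-base words in the Fcgr3 exons (166 words) also occur in Fcgr2b, so reads from there could have been counted for either gene. Of the Fcgr2b exon bases, 155 (2.7%) overlap the antisense gene Gm38204. The use of strand in counting is not named in the labels, so reads over those bases cannot be told apart by gene.

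The promoters of the 3 activating receptors and of the inhibitory one are shown because the levels of these genes moved together across libraries. Each is the window of 250 bases before and 50 bases after the annotated start, from RefSeq on GRCm38.p6, for Fcgr1 (chr3:96293920-96294219, minus strand), the first of 2 listed starts of Fcgr3 (chr1:171059354-171059653, minus strand), Fcgr4 (chr1:171018676-171018975, plus strand) and Fcgr2b (chr1:170976022-170976321, minus strand). Capitals mark GAGGAA, a purine-rich sequence bound by PU.1 and related factors, here on the opposite strand, and TTCNNNGAA, the pattern bound by STAT factors.
Fcgr1 promoter: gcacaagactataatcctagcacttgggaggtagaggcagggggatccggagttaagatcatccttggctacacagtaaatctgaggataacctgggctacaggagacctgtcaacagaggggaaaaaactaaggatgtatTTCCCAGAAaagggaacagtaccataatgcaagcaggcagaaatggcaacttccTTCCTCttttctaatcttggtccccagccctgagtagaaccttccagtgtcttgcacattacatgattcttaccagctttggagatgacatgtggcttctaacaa
Fcgr3 promoter: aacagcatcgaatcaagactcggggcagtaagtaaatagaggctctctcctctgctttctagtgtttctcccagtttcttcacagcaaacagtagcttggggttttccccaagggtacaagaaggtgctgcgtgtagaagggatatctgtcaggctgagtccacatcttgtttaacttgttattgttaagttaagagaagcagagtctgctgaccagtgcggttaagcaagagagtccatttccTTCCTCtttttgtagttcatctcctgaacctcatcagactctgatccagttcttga
Fcgr4 promoter: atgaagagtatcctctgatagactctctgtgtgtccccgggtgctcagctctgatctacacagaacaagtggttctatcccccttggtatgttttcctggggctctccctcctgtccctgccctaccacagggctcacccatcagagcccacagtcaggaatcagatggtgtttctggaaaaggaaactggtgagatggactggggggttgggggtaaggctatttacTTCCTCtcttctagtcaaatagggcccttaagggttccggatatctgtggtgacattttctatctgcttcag
Fcgr2b promoter: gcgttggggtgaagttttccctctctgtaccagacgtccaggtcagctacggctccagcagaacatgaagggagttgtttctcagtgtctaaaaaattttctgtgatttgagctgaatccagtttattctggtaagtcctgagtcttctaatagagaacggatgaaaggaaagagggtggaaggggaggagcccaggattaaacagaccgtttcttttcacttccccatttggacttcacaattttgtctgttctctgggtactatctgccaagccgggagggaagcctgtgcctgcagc
Both strands were searched, and the 2 patterns did not overlap. GAGGAA occurred once in each activating promoter, with its first base at -55 (Fcgr1), -6 (Fcgr3) and -22 (Fcgr4) from the start. It occurred 0 times in the windows of Fcgr2b and Fcer1g, and in 28.3% of 32851 RefSeq promoters of the same length. The shorter GGAA within that pattern was not counted, and it occurs in the windows of Fcgr2b and Fcer1g as well. TTCNNNGAA occurred in Fcgr1 alone of the 5, at -109, and in 8.3% of those promoters. These matches describe the letters of the windows and show no binding, and a lack of matches does not show that binding is absent.

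Library totals lay between 17869441 and 22195681 counts, and 8208 to 11922 genes had a count. The ribosomal transcript Rn45s took 19.41% to 35.61% of the counts. The EGFP-positive cDC1 libraries stood apart: their log2 values correlated at 0.629 over genes, against 0.85 to 0.898 for the replicate pairs of the other groups. EGFP itself had 0 symbols in the table, so the sort could not be checked by its own transcript. Values below are CPM after TMM scaling (counts scaled to a common library size), with the SD over the 2 libraries of a group.

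The cDC1 libraries carried the markers of their label. All 10 cDC1 markers were detected in each cDC1 library, and their summed level was 3420 to 7668 CPM in cDC1, against 379 to 923 CPM in cDC2. The 10 cDC2 markers summed to 33.0 to 396 CPM in cDC1 and 906 to 949 CPM in cDC2, with 6 to 9 and 7 to 9 of them detected. Sirpa, Itgam and Klf4 made up most of the sum in cDC2. Mgl2 had 0.0875 to 220 CPM in cDC1 and 27.9 to 149 CPM in cDC2, and Clec10a 5.40 to 82.9 and 21.1 to 102 CPM. These 2 thus overlapped between the subsets, and Epcam, Cd7 and Clec4a4 had 0 to 10.9 CPM in every library. Libraries labelled cDC2 were also rich in macrophage and monocyte transcripts, whose 20 markers summed to 480 to 13400 CPM in cDC1 and 28810 to 57820 CPM in cDC2. C1qa, a complement subunit made by macrophages, had 0.481 to 4.21 CPM in cDC1 libraries and 980 to 2478 CPM in cDC2 libraries. Mertk was at 0 counts in every cDC1 library and at 3.77 to 21.3 CPM in cDC2 libraries. All 20 macrophage and monocyte markers had negative edgeR log2 fold changes of cDC1 over cDC2 over both fractions. Of these, 4 passed an adjusted p of 0.05. Some overlapped between the subsets, such as Ccr2, with 0.0875 to 116 CPM in cDC1 and 92.9 to 174 CPM in cDC2. Ly6c2 overlapped as well, with 10.1 to 260 CPM in cDC1 and 83.75 to 158 CPM in cDC2. The defining cDC transcripts Flt3 and Zbtb46 were at 67.2 to 208 CPM and 10.1 to 37.1 CPM in the cDC1 libraries. In the cDC2 libraries they were at 0 to 10.8 CPM and 0 to 1.04 CPM. These 2 markers were thus low where the label is cDC2. The 8 shared cDC markers, these 2 included, summed to 33890 to 50690 CPM in cDC1 and 10020 to 25580 CPM in cDC2. In cDC2, H2-Ab1 was at 3255 to 8486 CPM and Cd74 at 6712 to 17030 CPM, below every cDC1 library. Itgax overlapped between the subsets, at 8.052 to 83.03 CPM in cDC1 and 52.29 to 82.62 CPM in cDC2.

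Per kilobase of exon, which allows levels of different genes to be compared, Fcer1g was the most abundant of the 5 in every group. In EGFP-negative cDC1 the levels were 474 ± 8.32 CPM per kb for Fcer1g, 35.7 ± 5.54 for Fcgr2b, 35.1 ± 4.34 for Fcgr3, 28.7 ± 16.1 for Fcgr4 and 12.5 ± 7.92 for Fcgr1 (SD, n = 2). In EGFP-negative cDC2 they were 3112 ± 638 CPM per kb for Fcer1g, 611 ± 16.3 for Fcgr3, 404 ± 151 for Fcgr4, 202 ± 16.1 for Fcgr2b and 152 ± 11.3 for Fcgr1. By this measure the inhibitory receptor was level with Fcgr3 in EGFP-negative cDC1 and below Fcgr3 and Fcgr4 in EGFP-negative cDC2. The comparison depends on the gene lengths used. With the longest coding transcript, Fcgr3 per Fcgr2b was 0.794 and 0.760 in EGFP-negative cDC1 and 2.22 and 2.58 in EGFP-negative cDC2. In raw counts it was 0.302 and 0.289 in EGFP-negative cDC1 and 0.843 and 0.980 in EGFP-negative cDC2.

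Fcgr3, the low-affinity activating receptor for IgG complexes, had 26.0 and 653 CPM in replicates 1 and 2 of EGFP-positive cDC1 and, in the same replicate order, 55.6 and 66.3 in EGFP-negative cDC1, 945 and 397 in EGFP-positive cDC2 and 1041 and 1081 in EGFP-negative cDC2. Its cDC1 libraries were low apart from EGFP-positive replicate 2, which reached the range of the EGFP-positive cDC2 libraries. Fcgr1, the high-affinity receptor, had 43.2 and 224 CPM in EGFP-positive cDC1, 17.95 and 46.9 in EGFP-negative cDC1, 429 and 139 in EGFP-positive cDC2 and 414 and 373 in EGFP-negative cDC2. Fcgr4, an activating receptor for IgG2 subclasses in the mouse, had 27.0 and 286 CPM in EGFP-positive cDC1, 21.8 and 50.3 in EGFP-negative cDC1, 706 and 178 in EGFP-positive cDC2 and 642 and 374 in EGFP-negative cDC2. For both, the same EGFP-positive cDC1 library was the highest of its subset and lay within the cDC2 range.

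Fcer1g had 140 and 1432 CPM in EGFP-positive cDC1, 409 and 420 in EGFP-negative cDC1, 2996 and 1459 in EGFP-positive cDC2 and 3115 and 2326 in EGFP-negative cDC2. Here the highest cDC1 library stayed just below the lowest cDC2 library. Fcgr2b had 29.5 and 593 CPM in EGFP-positive cDC1, 184 and 230 in EGFP-negative cDC1, 1185 and 521 in EGFP-positive cDC2 and 1235 and 1103 in EGFP-negative cDC2. The inhibitory receptor therefore spanned a 20.1-fold range between the EGFP-positive cDC1 replicates, Fcgr3 a 25.1-fold range and Fcgr1 a 5.20-fold range. For all 5 genes the group means had the order EGFP-negative cDC2, EGFP-positive cDC2, EGFP-positive cDC1, EGFP-negative cDC1, from high to low. Neighbours in that order overlapped in their libraries except for Fcgr3 between the cDC2 fractions and Fcer1g between EGFP-positive cDC2 and EGFP-positive cDC1.

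**Figure D1:**
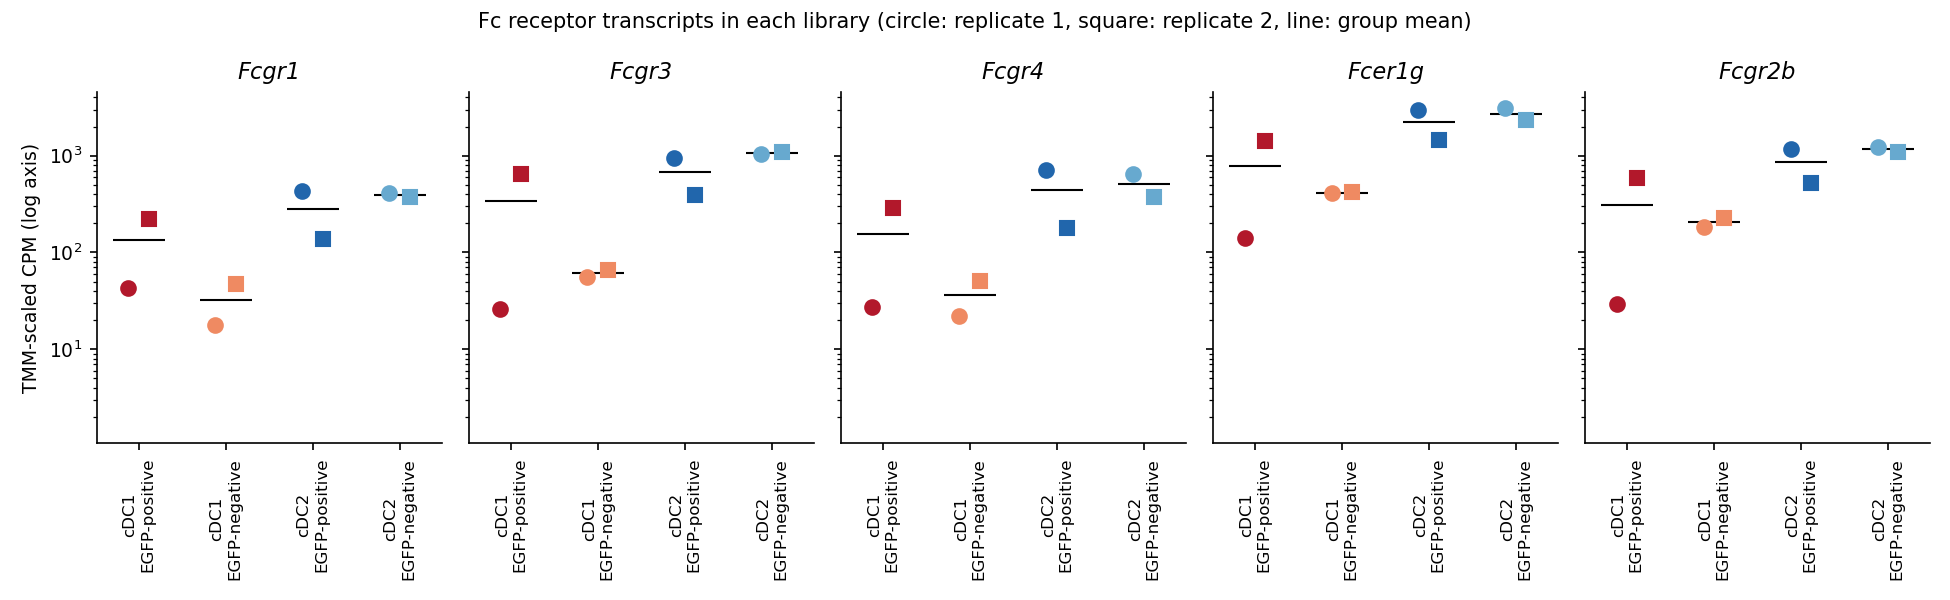
TMM-scaled CPM of the 5 genes (log axis) in each of the 8 libraries, grouped by subset and EGFP fraction, with circles for replicate 1, squares for replicate 2 and a line at the group mean. The 2 EGFP-positive cDC1 libraries lie far apart for every gene, for example 26.0 and 653 CPM for Fcgr3, while the EGFP-negative cDC1 libraries lie below both EGFP-negative cDC2 libraries.

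Between the subsets, in the EGFP-negative fraction, all 5 genes were lower in cDC1 in both libraries. Fcgr3 averaged 61.0 ± 7.54 CPM in EGFP-negative cDC1 and 1061 ± 28.3 CPM in EGFP-negative cDC2 (SD, n = 2), a fitted 17.4-fold lower level. The fitted levels were 14.1-fold lower for Fcgr4, 12.1-fold lower for Fcgr1, 6.56-fold lower for Fcer1g and 5.65-fold lower for Fcgr2b. A difference without overlap in this direction was seen in 26.5% of all genes tested. In edgeR's quasi-likelihood test over all 8 libraries, 0 of the 5 passed an adjusted p of 0.05, where 0.36% of genes did. The log2 fold changes were -4.12 ± 1.28 for Fcgr3 (SE, adjusted p = 0.3516), -3.82 ± 1.17 for Fcgr4 (adjusted p = 0.3362), -3.60 ± 0.93 for Fcgr1 (adjusted p = 0.2292), -2.71 ± 0.94 for Fcer1g (adjusted p = 0.4121) and -2.50 ± 1.12 for Fcgr2b (adjusted p = 0.5294). Unadjusted p-values of edgeR fell below 0.05 for 4 of the 5, the exception being Fcgr2b, and for 9.58% of all genes. DESeq2 called 3 of the 5, Fcgr1, Fcgr3 and Fcgr4, and 8.84% of the genes to which it gave an adjusted p.

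This comparison turned on libraries outside it, because all groups share 1 estimate of the spread. Without both EGFP-positive cDC1 libraries, a choice made after seeing the data, edgeR called all 5 lower in EGFP-negative cDC1, where 2.64% of 11034 genes were called lower. The adjusted p was then 0.00854 for Fcgr3 (log2 fold change -4.12 ± 0.46), 0.01831 for Fcer1g (-2.72 ± 0.40), 0.02699 for Fcgr2b (-2.50 ± 0.42), 0.03796 for Fcgr1 (-3.60 ± 0.67) and 0.04658 for Fcgr4 (-3.82 ± 0.76). A fit of the 4 EGFP-negative libraries alone also called all 5 lower, where 1.84% of 10089 genes were called lower, with adjusted p-values of 0.004929 to 0.04306 in edgeR. Without EGFP-positive cDC1 replicate 1 alone, 5 were called lower, with 2.72% of genes, and without replicate 2 alone 4 were, with 2.39% of genes and Fcgr4 the exception (adjusted p = 0.05127 in edgeR). The fold changes themselves were nearly the same in these fits, and the standard errors were smaller.

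In the EGFP-positive fraction the fitted subset differences lay nearer to 0 and the cDC1 libraries disagreed. Fcer1g averaged 786 ± 914 CPM in EGFP-positive cDC1 and 2227 ± 1087 CPM in EGFP-positive cDC2 (SD, n = 2) and was the 1 gene of the 5 without overlap, where 33.2% of all genes were lower in cDC1 without overlap. The edgeR log2 fold changes were -1.50 ± 0.90 for Fcer1g, -1.50 ± 1.07 for Fcgr4, -1.46 ± 1.08 for Fcgr2b, -1.09 ± 0.85 for Fcgr1 and -0.98 ± 1.14 for Fcgr3. None passed in edgeR (adjusted p = 0.4267 to 0.7394), where 0.228% of genes did, 0 of the 5 had an unadjusted p under 0.05 where 15.9% of genes did, and DESeq2 called 0 of the 5 and 1854 genes (16.8%). Without EGFP-positive cDC1 replicate 2, Fcgr3, Fcer1g and Fcgr2b were called lower in cDC1 at log2 fold changes of -4.69, -3.99 and -4.85, where 8.28% of genes were called lower. Without replicate 1, the values were -0.04, -0.64 and -0.52 and 0 of the 5 were called. Without EGFP-positive cDC2 replicate 1, the log2 fold changes were 0.031 for Fcgr1, -0.12 for Fcgr4, -0.16 for Fcgr3, -0.68 for Fcgr2b and -0.82 for Fcer1g, and 0 of the 5 were called. The size of the subset difference in this fraction thus changed with single libraries of both subsets.

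**Figure D2:**
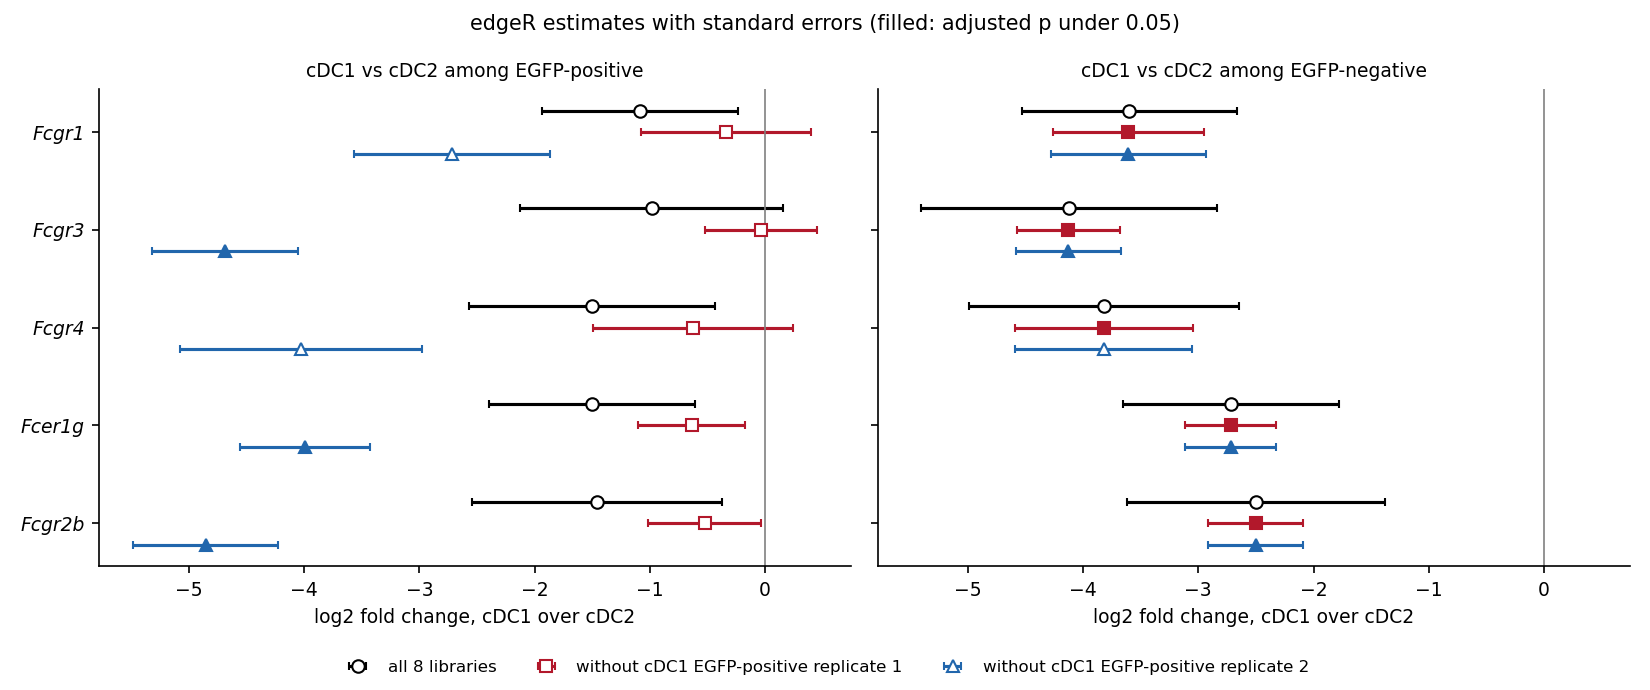
edgeR log2 fold changes of cDC1 over cDC2 with standard errors, in the EGFP-positive fraction (left) and the EGFP-negative fraction (right), from all 8 libraries and without either EGFP-positive cDC1 library, with filled symbols for an adjusted p under 0.05. In the EGFP-negative fraction the estimates stay in place and their error shrinks, whereas in the EGFP-positive fraction Fcgr3 moves between -0.04 and -4.69.

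Over both fractions, in an additive model of subset and EGFP fraction, the log2 fold changes of cDC1 over cDC2 were -2.66 ± 0.92 for Fcgr4, -2.55 ± 1.14 for Fcgr3, -2.34 ± 0.79 for Fcgr1, -2.11 ± 0.64 for Fcer1g and -1.98 ± 0.77 for Fcgr2b. None of the 5 passed in edgeR (adjusted p = 0.1959 to 0.3886), where 1.32% of genes did; 4 of the 5, all but Fcgr3, had an unadjusted p under 0.05, as did 13.5% of all genes, and DESeq2 called Fcgr1, Fcgr4 and Fcer1g, with 12.5% of the genes to which it gave an adjusted p. Only Fcer1g of the 5 separated all 4 cDC1 libraries from all 4 cDC2 libraries, where 8.56% of genes did so in this direction. Without EGFP-positive cDC1 replicate 2 all 5 were called lower, with 1.36% of genes. In bulk RNA, fewer cells that carry a transcript and less transcript per cell cannot be told apart.

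Between the EGFP fractions of cDC1 the estimates were larger for the 3 activating receptors than for Fcgr2b, with errors that overlapped. The edgeR log2 fold changes of EGFP-positive over EGFP-negative cDC1 were 2.48 ± 1.19 for Fcgr3 (adjusted p = 0.4068), 2.12 ± 1.09 for Fcgr4 (adjusted p = 0.4184) and 2.04 ± 0.87 for Fcgr1 (adjusted p = 0.3915). They were 0.92 ± 0.88 for Fcer1g (adjusted p = 0.692) and 0.59 ± 1.07 for Fcgr2b (adjusted p = 0.8897). None passed, nor did any of the 11394 genes (0%) in edgeR, whereas 1452 genes had an unadjusted p under 0.05 and DESeq2 called 1547 genes (13.7%) but 0 of the 5. The groups overlapped for every one of the 5, where 11.5% of genes were higher and 24.0% lower without overlap. Without EGFP-positive replicate 1, Fcgr3 (3.43, adjusted p = 0.007901) and Fcer1g (1.79, adjusted p = 0.04854) were called higher by edgeR, with 1.93% of genes. Without replicate 2, Fcgr2b was called lower (-2.81, adjusted p = 0.023), with 6.68% of genes, and Fcgr3, Fcgr4 and Fcer1g had negative values (-1.23, -0.41 and -1.56). No direction of the level in EGFP-positive cDC1 held in both libraries for Fcgr3, Fcer1g or Fcgr2b, and for Fcgr1 and Fcgr4 replicate 1 lay between the EGFP-negative libraries.

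In cDC2 no difference between the EGFP fractions was detectable for the 5 genes. The edgeR log2 fold changes of EGFP-positive over EGFP-negative cDC2 were -0.66 ± 1.14 for Fcgr3, -0.47 ± 0.84 for Fcgr1, -0.45 ± 1.06 for Fcgr2b, -0.29 ± 0.88 for Fcer1g and -0.20 ± 1.05 for Fcgr4, each at adjusted p = 1.0. In this comparison 0 genes (0%) passed in edgeR, 300 had an unadjusted p under 0.05 and DESeq2 called 151 (1.23%), with 0 of the 5 among them. Fcgr3 alone of the 5 was lower in the EGFP-positive fraction without overlap, where 19.2% of genes were. The difference between the EGFP effects of the subsets was 3.14 for Fcgr3, 2.51 for Fcgr1, 2.32 for Fcgr4, 1.21 for Fcer1g and 1.04 for Fcgr2b on the log2 scale, and edgeR called 0 of the 5 (adjusted p = 0.5013 to 0.9198) and 0 of all genes (0%). For that difference 1180 genes had an unadjusted p under 0.05 and DESeq2 called 890 (7.88%), with 0 of the 5 among them.

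The balance of activating to inhibitory transcripts set EGFP-negative cDC1 apart from the other 6 libraries. It was taken within each library as the sum of Fcgr1, Fcgr3 and Fcgr4 over Fcgr2b in counts per kilobase of exon, so that it does not depend on library scaling. The ratio was 10.4 and 6.75 in EGFP-positive cDC1, 1.77 and 2.43 in EGFP-negative cDC1, 6.21 and 4.71 in EGFP-positive cDC2 and 5.96 and 5.59 in EGFP-negative cDC2. Both EGFP-negative cDC1 libraries were below every other library, and the EGFP-positive cDC1 libraries were above the rest, including the replicate with low levels of all 5 genes. On the log2 scale the means were 3.07 ± 0.45 in EGFP-positive cDC1, 1.05 ± 0.32 in EGFP-negative cDC1, 2.44 ± 0.28 in EGFP-positive cDC2 and 2.53 ± 0.07 in EGFP-negative cDC2 (SD, n = 2). No test was run on this ratio, and the share of other gene ratios that separate the same libraries was not determined. Among single genes, levels without overlap between the cDC1 fractions were common: 24.0% were lower and 11.5% higher in EGFP-positive cDC1.

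Expressed as a share of the 4 receptor genes, Fcgr2b made up 8.74% and 12.9% in EGFP-positive cDC1, 36.1% and 29.2% in EGFP-negative cDC1, 13.9% and 17.5% in EGFP-positive cDC2 and 14.4% and 15.2% in EGFP-negative cDC2. Fcgr3 alone per Fcgr2b was 2.94 and 3.67 in EGFP-positive cDC1, 1.01 and 0.963 in EGFP-negative cDC1, 2.66 and 2.54 in EGFP-positive cDC2 and 2.81 and 3.27 in EGFP-negative cDC2. The activating receptors did not contribute alike in the EGFP-positive cDC1 libraries: Fcgr1 was 28.6% of the 4 in replicate 1 and 10.9% in replicate 2, while Fcgr3 was 25.7% and 47.4%. In the other groups Fcgr1 stayed between 7.87% and 13.3%. Fcer1g per activating receptor was 3.01 and 2.37 in EGFP-positive cDC1, 8.31 and 4.98 in EGFP-negative cDC1, 2.695 and 3.94 in EGFP-positive cDC2 and 2.81 and 2.50 in EGFP-negative cDC2. The common chain was thus in larger excess over its IgG receptor chains in both EGFP-negative cDC1 libraries than in the others. The activating sum enters this ratio and the balance alike, so they are not separate observations, and no test was run on either.

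**Figure D3:**
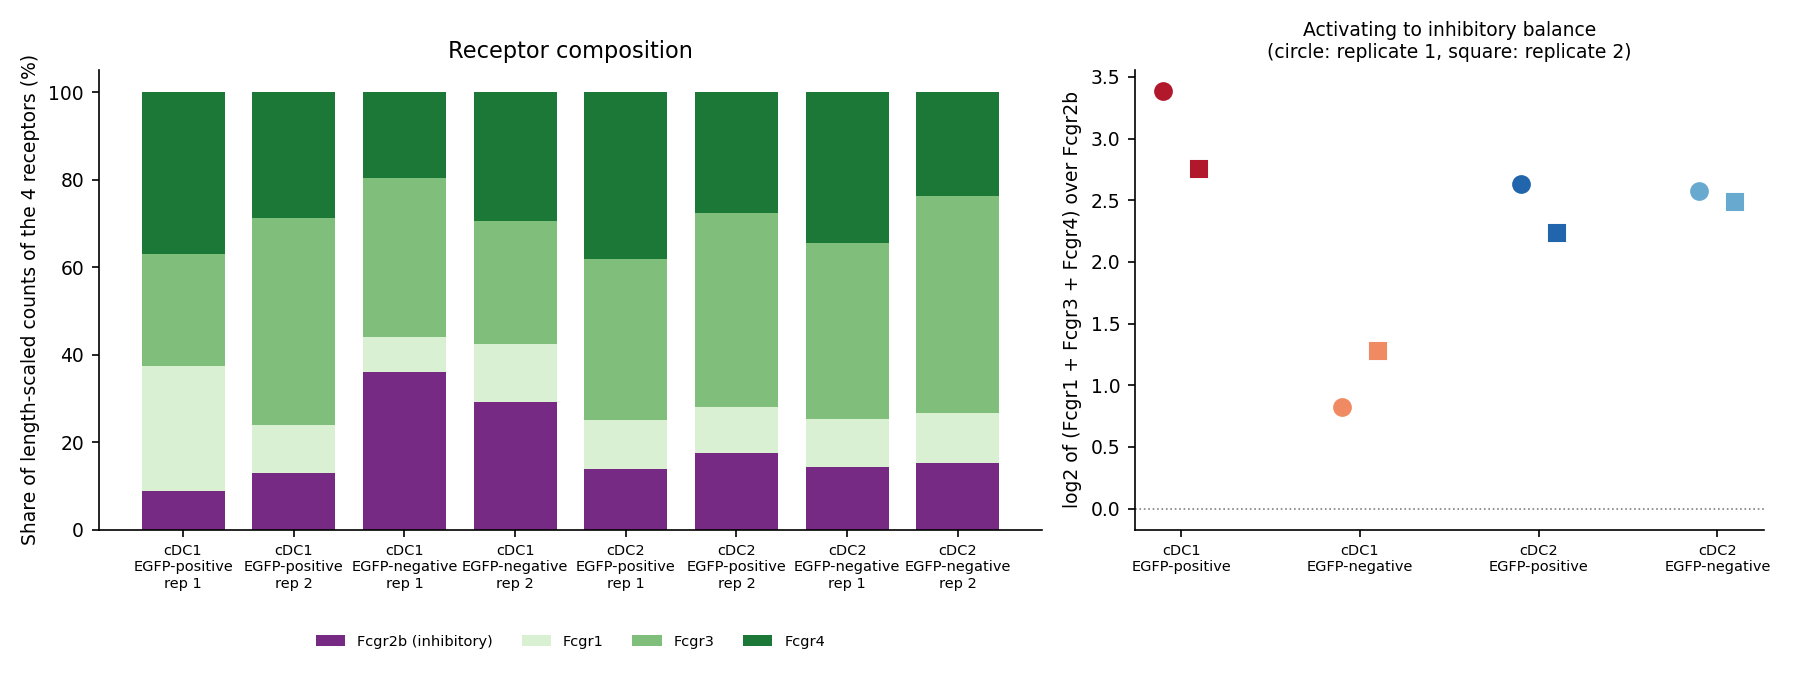
Left, the share of each of the 4 receptor genes in their summed counts per kilobase of exon for each library, stacked with Fcgr2b at the bottom. Right, log2 of the activating sum over Fcgr2b per library, with circles for replicate 1 and squares for replicate 2; EGFP-negative cDC1 lies at 0.82 and 1.28 and the other 6 libraries at 2.24 to 3.38.

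The exon length of Fcgr2b used here, 5790 bases, is long beside 1256 to 2589 bases for the 3 activating genes, and the size of the ratio depends on it. With the longest coding transcript in place of all exons the ratios were 6.91 and 4.78 in EGFP-positive cDC1, 1.26 and 1.66 in EGFP-negative cDC1, 4.27 and 3.33 in EGFP-positive cDC2 and 4.14 and 3.997 in EGFP-negative cDC2, in the same order of groups at the low end. Without length scaling the group mean in EGFP-negative cDC1 was -0.72 on the log2 scale, so there the sign of the balance turned, while this group remained the lowest.

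The 20 macrophage and monocyte markers summed to 480 and 13400 CPM in EGFP-positive cDC1, 2452 and 3606 in EGFP-negative cDC1, 50780 and 28810 in EGFP-positive cDC2 and 57820 and 47440 in EGFP-negative cDC2, for replicates 1 and 2. The order of the libraries by this sum followed Fcgr2b closely, except that EGFP-positive cDC2 replicate 2 had more marker transcript and less Fcgr2b than EGFP-positive cDC1 replicate 2. EGFP-positive cDC1 replicate 1 had the lowest sum and the highest activating to inhibitory ratio (10.4). Next lowest in the sum were the EGFP-negative cDC1 libraries, which had the lowest ratios (1.77 and 2.43). The remaining libraries, with sums of 13400 to 57820 CPM, had ratios of 4.71 to 6.75. A link of the balance to the sum was not tested. EGFP-positive cDC1 replicate 2 differed from its partner in Lyz2 (8773 CPM, against 290 in replicate 1), Csf1r (401, against 1.27) and Ccr7 (5498, against 368), the chemokine receptor of migrating dendritic cells, but C1qa stayed at 4.21 CPM and Mertk at 0. Tumour and stroma markers summed to 808 CPM in EGFP-positive cDC1 replicate 1 and 10.1 to 181 CPM elsewhere. The 808 CPM came mostly from the matrix genes Sparc (674), Col3a1 (90.8) and Col1a2 (40.7). The epithelial markers Epcam, Krt8 and Krt18 were at 0 counts in that library, and Krt19 was at 0.481 CPM. The part of these transcripts in the receptor levels was not tested. NK cells and mast cells also use these receptors. Of the 8 NK cell markers, Ncr1, Gzma, Prf1, Eomes and Klra8 were at 0 counts in all 8 libraries, but Klrd1, a lectin-like receptor gene, had 5.25 and 106 CPM in EGFP-positive cDC1 and 156 and 66.4 CPM in EGFP-negative cDC1, and the list summed to at most 7.33 CPM in cDC2. Of the 8 mast cell and basophil markers, Mcpt8, Mcpt4, Cpa3, Tpsb2, Tpsab1 and Prss34 were at 0 counts in all 8 libraries, and the list, mostly the histidine decarboxylase gene Hdc, summed to at most 16.3 CPM. The 7 neutrophil markers in the table summed to at most 41.4 CPM.

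**Figure D4:**
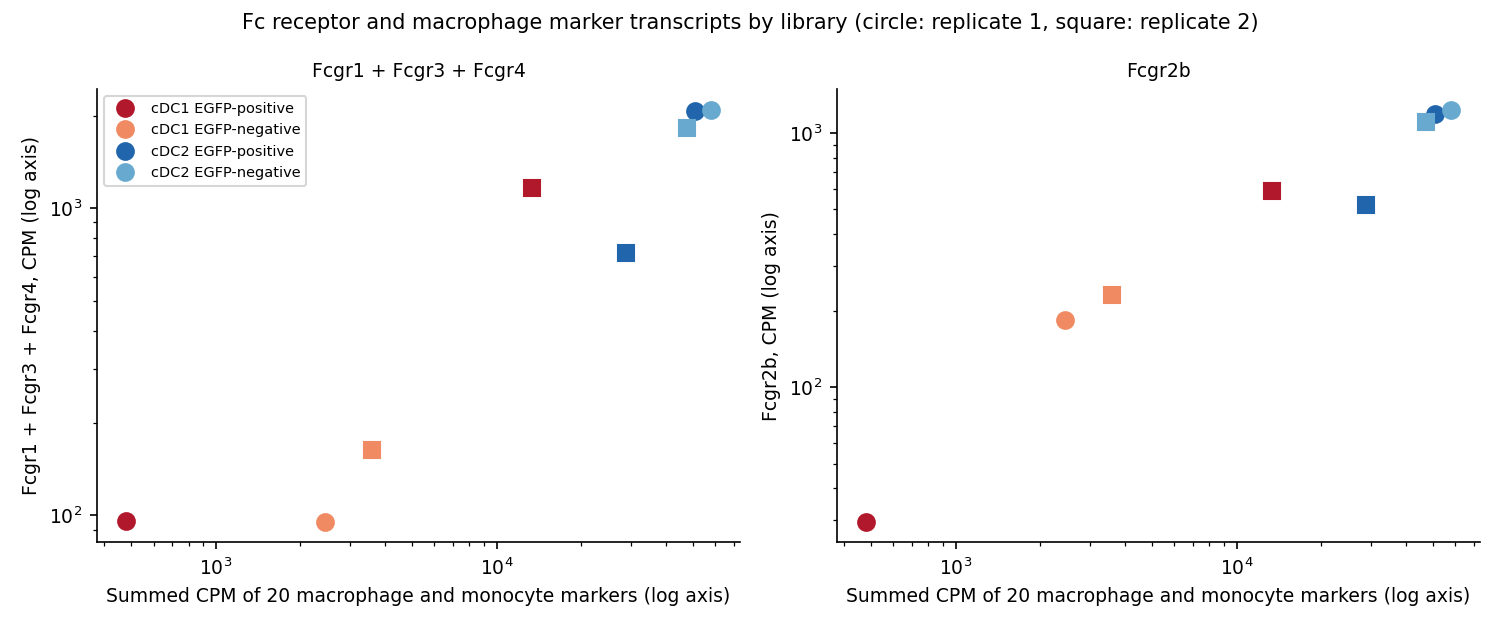
Summed CPM of the 20 macrophage and monocyte markers (x, log axis) against the summed CPM of Fcgr1, Fcgr3 and Fcgr4 (left) and the CPM of Fcgr2b (right) for each library (y, log axes), with circles for replicate 1 and squares for replicate 2. EGFP-positive cDC1 replicate 1 (480 CPM of markers) has less Fcgr2b than the EGFP-negative cDC1 libraries (29.5 CPM, against 184 and 230).

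The genes downstream of the activating chains were read as a list of 24, of which 23 were tested. In the model over both fractions 2 were lower in cDC1 and 0 higher, where 1.32% of all genes were called in either direction. Syk, the kinase that binds the ITAM of Fcer1g, had 12.9 and 19.1 CPM in EGFP-positive cDC1, 14.2 and 13.1 in EGFP-negative cDC1, 64.8 and 65.5 in EGFP-positive cDC2 and 53.9 and 57.7 in EGFP-negative cDC2. It fell to a mean of 14.8 ± 2.91 CPM in cDC1, against 60.5 ± 5.59 CPM in cDC2 (SD over 4 libraries each), with an edgeR log2 fold change of -2.03 ± 0.37 and adjusted p of 0.03371. In contrast to the receptors, Syk had similar levels in both EGFP-positive cDC1 libraries. Blnk, an adaptor known downstream of Syk in B cells, had 0 to 0.0702 CPM across cDC1 libraries, against 30.5 to 46.9 CPM across cDC2 libraries, with adjusted p of 0.002514 in edgeR. The median log2 fold change of the 23 was -0.50, against -0.28 over all genes. In the EGFP-negative fraction without the EGFP-positive cDC1 libraries, edgeR called 3 of the 23 lower in cDC1, Blnk, Syk and the linker Lat2, and 0 higher, where 2.64% of all genes were called lower.

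The phosphatases and adaptors used by inhibitory receptors gave 0 calls among 10 tested (0 with an unadjusted p under 0.05 over both fractions), in the model over both fractions and in the EGFP-negative fraction without the EGFP-positive cDC1 libraries, both in edgeR. Inpp5d, which encodes the phosphatase recruited by Fcgr2b, averaged 78.7 ± 10.6 CPM in cDC1 and 52.4 ± 15.98 CPM in cDC2 (edgeR log2 fold change 0.59 ± 0.31, adjusted p = 0.4529). Ptpn6, which encodes the phosphatase SHP-1, had 303 and 396 CPM in EGFP-positive cDC1, 245 and 183 in EGFP-negative cDC1, 149 and 120 in EGFP-positive cDC2 and 419 and 329 in EGFP-negative cDC2. The range of these 2 genes over the libraries was small beside that of Fcgr2b. This did not hold for the whole list: Dok2 ran from 0.0438 to 185 CPM over the libraries, whereas Csk ran from 29.9 to 90.8 CPM.

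Of 16 genes for Tyrobp, the adaptor related to Fcer1g, and receptors that pair with either chain, 15 were tested and 0 passed over both fractions in edgeR (1 at an unadjusted p under 0.05, where 13.5% of all genes were), with a median log2 fold change of -1.91. Clec4n, which encodes the fungal receptor Dectin-2, had 0.394 and 806 CPM in EGFP-positive cDC1, 58.8 and 186 in EGFP-negative cDC1, 1071 and 619 in EGFP-positive cDC2 and 1251 and 1361 in EGFP-negative cDC2. As for the Fc receptors, EGFP-positive replicate 2 was its highest cDC1 library. The gap between its EGFP-positive cDC1 replicates was wider than for any of the 5 Fc receptor genes, and replicate 1 lay far below both EGFP-negative cDC1 libraries. Without the EGFP-positive cDC1 libraries, 5 of 14 tested were called lower in cDC1 in the EGFP-negative comparison: Trem2, Cd300lb, Clec4d, Clec4e and Clec4n. In that fit 2.64% of all genes were called lower. Of 15 other ITIM receptors, 0 passed over both fractions in edgeR (3 at an unadjusted p under 0.05, where 13.5% of all genes were), and the median was -2.40. All 15 had negative log2 fold changes between the subsets in the EGFP-negative fraction (median -3.86, against -0.04 over all genes), and without the EGFP-positive cDC1 libraries 3 were called lower, with the same 2.64% of all genes: Cd300lf, Cd72 and Pilra.

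**Figure D5:**
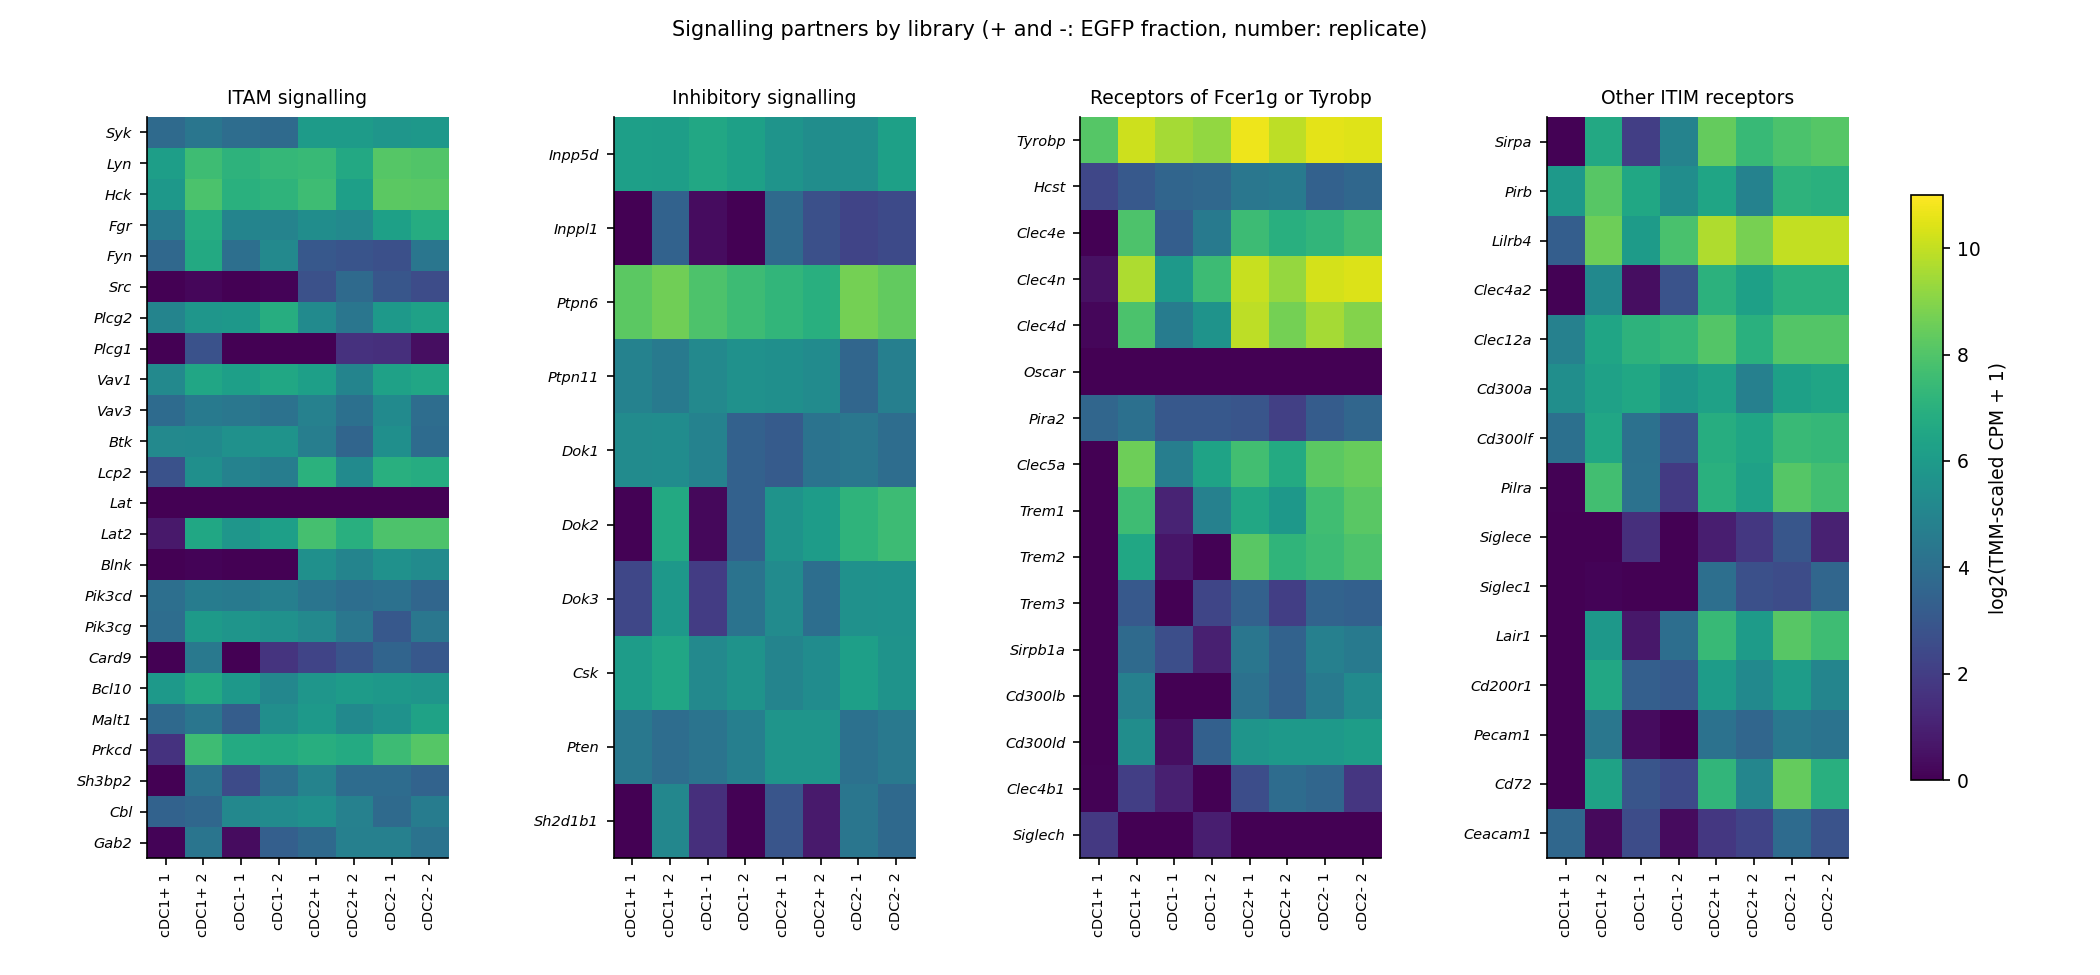
log2(CPM + 1) of the genes of 4 lists (rows) in each library (columns, with + and - for the EGFP fraction and the replicate number): ITAM signalling, inhibitory signalling, Fcer1g or Tyrobp with their receptors, and other ITIM receptors. Many receptors of the 2 right-hand lists are dark in EGFP-positive cDC1 replicate 1, such as Clec4n at 0.394 CPM, and bright in the cDC2 libraries.

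Among other Fc and immunoglobulin receptors, 6 of 14 were tested. Fcrls, an Fc receptor-like gene, was lower in cDC1 over both fractions, with a mean of 0.0751 ± 0.0447 CPM in cDC1, against 32.4 ± 16.6 CPM in cDC2 (SD over 4 libraries each; edgeR log2 fold change -8.66 ± 0.99, adjusted p = 0.003457). Fcgrt, the neonatal receptor that binds IgG inside cells, had 113 and 124 CPM in EGFP-positive cDC1, 228 and 148 in EGFP-negative cDC1, 39.7 and 67.2 in EGFP-positive cDC2 and 18.6 and 64.1 in EGFP-negative cDC2. Every cDC1 library was above every cDC2 library, as for 3.96% of all genes tested. The direction was opposite to the fitted changes of the 5 Fc gamma receptor genes. The edgeR difference did not pass (log2 fold change 1.67 ± 0.45, adjusted p = 0.1378). Fcer1a, the IgE-binding chain that also pairs with Fcer1g, was at 0 counts in all 8 libraries.

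Across the 8 libraries the log2(CPM + 1) of the 5 genes correlated with each other at 0.821 (Fcgr1 with Fcgr2b) to 0.983 (Fcgr1 with Fcgr4), a description of libraries that fall into groups. Fcgr2b was closer to Fcer1g (0.98) than to any activating receptor chain. By the same measure among 5929 genes, the patterns most like Fcgr2b were those of Tmem106a (0.995), Lyz2 (0.992) and Cd14 (0.991), and those most like Fcer1g were C3ar1 (0.995), Cyba (0.993) and Prdx5 (0.993). Fcgr1 and Fcgr4 were each most like Ctsz (0.984 and 0.988) and had each other among their 3 nearest genes. Fcgr3 was most like Sirpb1b (0.985), Msr1 (0.984) and Mir22hg (0.983).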

How the data were processed

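Per the submitters' processing notes, reads were handled with Trimmomatic 0.39, STAR 2.7.5c and Cufflinks 2.2.1 on mm10. The deposited table holds raw read counts for 24369 symbols in 8 columns, matched to samples by name. The read counter and the annotation used for counting: not given in the sources used here. Full-length cDNA was made from sorted cells by a low-input method, per the labels' protocols.

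Differences were tested with edgeR 4.0.16 in R 4.3.3 (TMM scaling, filterByExpr, glmQLFit with robust estimation, Benjamini-Hochberg over 11394 genes, threshold 0.05) in a model of 4 group means and, for subset over both fractions, an additive model. The common dispersion of the additive model was 1.53, a biological coefficient of variation of 1.24. The steps were tested on simulated counts drawn with a smaller dispersion than that of these data. That test therefore does not show how often changes are found or falsely called at the spread seen here. The labels do not say that replicates came from separate animals, so p-values measure the spread between these samples. Exon lengths came from GENCODE M21 and promoters from RefSeq. In ratios 0.5 counts were added to each gene. In each list, up to 4 genes of smallest p with at least 5 CPM were to be named, and the 3 nearest genes in likeness. Others, such as Clec4n, Lyz2, Csf1r, Ccr7, C1qa and Fcer1a, were chosen after their values were seen. The members and lists were chosen with earlier results of these data known. The titles share 1 tag over every replicate 1 and another over every replicate 2; the labels do not say what the tags mark, so the libraries were fitted unpaired and the replicate block is an alternative. Counting intervals are not given, and PCR duplicates could not be removed.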

Additional observations from a re-analysis of the deposited data

Results flagged for a closer look

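Among the 4 cDC1 libraries, EGFP-positive replicate 2 lay far above the others for 3 activating receptors. It had 224 CPM of Fcgr1, 653 CPM of Fcgr3 and 286 CPM of Fcgr4, and its gap to the next library took 0.86, 0.936 and 0.892 of the whole range, above Dixon's 95% limit for 4 libraries. The same library was the highest for Fcer1g and Fcgr2b, where the share of the range (0.783 and 0.645) did not pass the limit. In all, 12 sets of 4 libraries were examined, and chance gives such a result in about 5% of sets. The 12 sets are not independent, since the genes share libraries.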

How the results depend on the processing

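Of 460 alternative values of the 30 gene-by-comparison estimates, 410 kept direction and side of the threshold, 36 newly passed it and 14 changed sign. Leaving out 1 library at a time, the log2 fold change of EGFP-positive over EGFP-negative cDC1 ran from -1.23 to 3.43 for Fcgr3, -0.41 to 2.99 for Fcgr4, -1.56 to 1.79 for Fcer1g and -2.81 to 1.52 for Fcgr2b, and the interaction from -0.56 to 4.09, -0.21 to 3.73, -1.27 to 2.08 and -2.35 to 1.98. In all 8 ranges the negative values came without EGFP-positive cDC1 replicate 2. In cDC2 the EGFP contrast ran from -1.61 to 0.12 for Fcgr1, -1.62 to 0.47 for Fcgr4, -1.003 to 0.14 for Fcer1g and -1.27 to 0.019 for Fcgr2b, highest without EGFP-positive replicate 2, and Fcgr4 was 0.24 without EGFP-negative replicate 1. Fcgr1 between EGFP-positive subsets ran from -2.72 to 0.031. The cause was not tested.

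Genes called by DESeq2 1.42.0 were 1547 (EGFP in cDC1), 151 (EGFP in cDC2), 953 (subset, EGFP-negative), 1854 (subset, EGFP-positive), 890 (interaction) and 1413 (subset, both fractions). With no low-count filter edgeR called 57, 0, 112, 153, 29 and 236 in the same order. The 4 libraries compared alone gave 292 for EGFP-negative subsets and 0 for EGFP-positive subsets, and the mean of the 2 subset contrasts gave 275. Without both EGFP-positive cDC1 libraries 392 were called for EGFP-negative subsets. Leaving out 1 library gave 0 to 1050, 0 to 0, 1 to 465, 1 to 1273, 0 to 668 and 50 to 277 genes, and 0 to 2, 0 to 0, 0 to 5, 0 to 3, 0 to 1 and 0 to 5 of the 5 Fc receptor genes. DESeq2 called 3 of the 5 for EGFP-negative subsets and 3 for both fractions, and both reduced fits called 5.

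With the replicate number as a block, edgeR called 3 genes for EGFP-negative subsets, 0 for EGFP-positive subsets and 82 for both fractions, and 0 of the 5. Deviations of same-numbered libraries correlated at -0.224 to 0.041, which gave no sign of pairing but cannot settle it with 2 libraries a group; whether the tags that the titles share by replicate number mark animals is not stated in the labels. A crossed block for EGFP-positive subsets, added after seeing the data, gave 7 genes.

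The log2 balance of EGFP-positive cDC1, EGFP-negative cDC1, EGFP-positive cDC2 and EGFP-negative cDC2 was 1.34, -0.72, 0.63 and 0.75 without length scaling, and 2.52, 0.53, 1.92 and 2.02 with the longest coding transcript, a choice added after seeing the data. With 1 library each it was 2.75 to 3.38, 0.82 to 1.28, 2.24 to 2.64 and 2.48 to 2.57.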
